A study of Mus musculus with 9 samples.

Results

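The genes described here encode the heat-inducible and constitutive chaperones of the cytosol, taken from a list of 10: Hspa1a, Hspa1b, Hspa8, Hsph1, Hsp90aa1, Hsp90ab1, Dnajb1, Hspb1, Cryab and Bag3. A gene was measured where a transcript cluster, the array's unit of a set of probes read as 1 value, carried its symbol and no other in the platform annotation. Of several such clusters for 1 gene, that of the highest average level on the 9 arrays was used. Of the 10 genes, 8 had such a cluster, among 30087 genes with a cluster of their own and 65534 clusters in all. Hspa1b shared its only cluster with Hspa1a, and Hsp90ab1, the constitutive HSP90 of the cytosol, was not analysed here.

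The tissue was left ventricle from 3 mice (male C57BL/6, 8 weeks old), in which the left anterior descending coronary artery was tied for 45 min and then released for 24 h. Each ventricle was separated into the ischemia zone (IZ), the border zone (BZ) and the remote non-ischemic zone (NIZ), which gave 3 arrays per zone and 9 in all. All 3 zones therefore carry the same ligation and reperfusion and the same genotype, and the NIZ is tissue of an operated heart, not of a sham-operated or untouched one. Whole tissue was profiled, so a lower level in a zone may mean fewer cells of a type or less RNA per cell, and these cannot be told apart. The labels number the arrays of each zone 1 to 3 without saying which mouse a number stands for, so the p-values measure only the spread between these arrays.

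Heat shock chaperones hold unfolded proteins, prevent their aggregation and help them refold. In resting cells, the transcription factor HSF1 is kept inactive by chaperones, and when unfolded proteins draw these chaperones away it binds heat shock elements in the promoters of the inducible genes. HSP70 proteins bind and release clients in an ATP-driven cycle in which J-domain proteins such as Dnajb1 deliver clients and exchange factors such as Hsph1 and Bag3 reset the cycle. HSP90 folds kinases and steroid receptors, and the small heat shock proteins Hspb1 and Cryab hold clients without ATP. In the heart, Cryab and Hspb1 guard the sarcomere and the cytoskeleton, and raised HSP70 is known to protect the myocardium against ischemia and reperfusion.

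The heat shock element is built of inverted repeats of the letters NGAAN, and its core can be written GAANNTTC or TTCNNGAA, each of which reads the same on both strands. Promoters, taken as the 250 bases before an annotated start in RefSeq (GRCm38.p6), were given for 6 of the 10 genes, and 4 of these genes held a core. For comparison, GAANNTTC occurred in 6.69% and TTCNNGAA in 7.17% of 32851 promoters of the same length, and 12.8% held either. Hspa1a and Hspa1b each had 1 core, which began 104 bases before the start, and their promoters shared 247 of 250 bases, or 98.8%. Hspb1 had 2 cores at 117 and 97 bases. Hsph1 had 1, at 33 bases before 1 annotated start and 54 bases before another. The windows of Bag3 and Dnajb1 held neither, which says only that these letters are absent from the windows. Hspa1a and Hspb1 are also the members with the widest spread over the arrays. The range of Hsph1 was 0.71 on the log2 scale, narrower than that of Hsp90aa1 (1.00), for which no promoter was given. A link of the spread to the core was not tested. The promoters of the 3 measured genes with a core are shown with the core in capitals. They lie at chr17:34972157-34972406 (minus strand) for Hspa1a, chr5:135887669-135887918 (plus strand) for Hspb1 and chr5:149636337-149636586 (minus strand) for Hsph1.
Hspa1a: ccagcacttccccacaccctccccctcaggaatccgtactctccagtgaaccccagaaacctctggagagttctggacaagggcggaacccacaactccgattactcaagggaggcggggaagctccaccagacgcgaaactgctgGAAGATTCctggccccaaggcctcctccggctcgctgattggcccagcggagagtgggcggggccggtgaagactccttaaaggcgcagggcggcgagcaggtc
Hspb1: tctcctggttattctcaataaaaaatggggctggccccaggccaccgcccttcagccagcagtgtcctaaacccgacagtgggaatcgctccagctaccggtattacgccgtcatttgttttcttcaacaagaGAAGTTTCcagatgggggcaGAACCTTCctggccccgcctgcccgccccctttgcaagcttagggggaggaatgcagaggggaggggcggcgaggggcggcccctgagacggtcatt
Hsph1: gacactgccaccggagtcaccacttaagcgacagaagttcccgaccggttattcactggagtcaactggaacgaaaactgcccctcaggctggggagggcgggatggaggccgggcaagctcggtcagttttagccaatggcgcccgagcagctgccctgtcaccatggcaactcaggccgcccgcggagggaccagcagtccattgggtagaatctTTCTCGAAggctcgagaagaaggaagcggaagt

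The values are robust multi-array average (RMA) levels on the log2 scale, so a difference of 1 is a 2-fold difference in probe signal. Array medians ran between 4.19 and 4.29. All 12 cardiomyocyte markers on the list were measured, with gene means between 8.75 and 13.8. The labels name heart as the source, although their tissue tag reads brain. Of the marker lists, that of neutrophils (7 genes) varied most between arrays: its mean, centred over the 9 arrays, ran between -0.25 and 0.83 in the IZ, between -1.78 and 1.78 in the BZ and between -2.20 and 1.36 in the NIZ. The mean of 4 atrial markers was raised on replicate 2 of the NIZ, by 2.37, and of the BZ, by 1.09, and lay below 0 on the other 7 arrays. Of the arrays left out 1 at a time, only replicate 3 of the NIZ changed the number of calls. With all arrays, limma called 0 of 65534 clusters at an adjusted p under 0.05 in any comparison, and without that array it called 216 for the IZ and 173 for the BZ against the NIZ, with 0 of the 8 members among those called.

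No member passed the test in any comparison of zones. In IZ against NIZ 2 of 8 members were higher and 6 lower, with a median log2 difference of -0.10, against -0.01 over all clusters, of which 59.5% were lower. In BZ against NIZ 4 were higher and 4 lower, with a median of -0.01, against 0.00 over all clusters. In IZ against BZ 2 were higher and 6 lower, with a median of -0.03, against -0.02 over all clusters. The first and second comparisons share the NIZ arrays. By limma with Benjamini-Hochberg adjustment, 0 members passed in each, beside 0% of all clusters in each, and the smallest adjusted p over all clusters was 0.999 in IZ against NIZ, 0.854 in BZ against NIZ and 0.943 in IZ against BZ. Without NIZ replicate 3, 7 of 8 members were lower in each of IZ against NIZ and BZ against NIZ, each with a median of -0.14, beside 37308 and 30616 of the 65534 clusters lower. Without NIZ replicate 1 the member medians were 0.07 and 0.15 instead, and 0 members were called without either array. At an unadjusted p under 0.05 with all arrays there were also 0 members in each comparison, while among all clusters 1.24% were higher and 2.72% lower in IZ against NIZ, 2.19% higher and 3.09% lower in BZ against NIZ, and 1.26% higher and 2.58% lower in IZ against BZ.

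**Figure D1:**
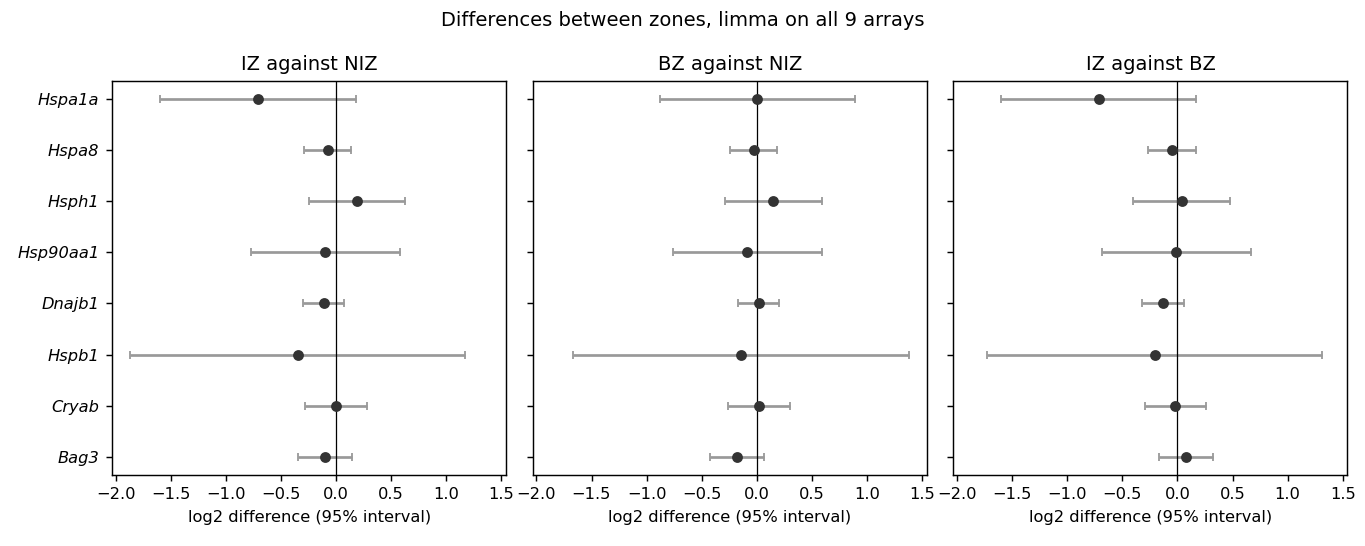
Log2 difference of each measured member in IZ against NIZ, BZ against NIZ and IZ against BZ (points, limma on 9 arrays) with its 95% interval (bars). All 24 intervals include 0, and Hspa1a lies farthest below it at -0.71 in IZ against NIZ and -0.72 in IZ against BZ.

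Hspa1a, the stress-inducible HSP70, was the only member whose IZ arrays all lay below those of the other zones. Its levels were 6.47, 6.49 and 6.34 in the IZ, 7.59, 7.35 and 6.52 in the BZ, and 7.95, 6.84 and 6.64 in the NIZ. All 3 IZ arrays lay below all BZ and all NIZ arrays, close to each other, while BZ and NIZ arrays spread widely and overlapped. The margin was narrow: the highest IZ array was at 6.49, BZ replicate 3 at 6.52 and NIZ replicate 3 at 6.64. The means were 6.43 ± 0.08 in the IZ, 7.15 ± 0.56 in the BZ and 7.14 ± 0.71 in the NIZ (SD, n = 3 each). The log2 difference was -0.71 in IZ against NIZ (SE 0.38, 95% interval -1.60 to 0.18), or 0.611-fold, and -0.72 in IZ against BZ (SE 0.38, interval -1.60 to 0.17), or 0.609-fold. Neither passed the test, with limma adjusted p = 0.999 and 0.943, and the exact two-sided permutation test of 3 against 3 arrays gave p = 0.1 for both, the smallest it allows. Arrays of the IZ lay wholly below those of the NIZ in 4.55% of all clusters and wholly below those of the BZ in 3.53%, and Hspa1a was the only member in either count. The BZ differed from the NIZ by 0.01 (SE 0.38, adjusted p = 1). The size of the IZ difference varied with the NIZ arrays kept: without NIZ replicate 1 the difference in IZ against NIZ was -0.31, and without NIZ replicate 3 it was -0.96 (adjusted p = 0.658). In the same comparison 8 of 10 immediate early genes were lower (median -0.14), 8 of 8 macrophage markers were higher (median 0.48), and 12 cardiomyocyte markers split into 6 higher and 6 lower (median 0.00), each with 0 genes at an adjusted p under 0.05. Their part in the level of Hspa1a was not tested.

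The second cluster of this locus, TC1700001935.mm.1, carries the symbols of both Hspa1b and Hspa1a, whose sequences are near-identical, and how far the probes of each cluster read RNA of the other gene was not tested. Its levels were 7.23, 7.09 and 6.96 in the IZ, 7.96, 7.59 and 7.07 in the BZ, and 8.35, 7.25 and 7.19 in the NIZ. The lowest array was in the IZ, but the zones overlapped, with replicate 3 of the BZ and of the NIZ among the IZ arrays. It showed differences of -0.50 in IZ against NIZ, -0.06 in BZ against NIZ and -0.45 in IZ against BZ. Over the 9 arrays it correlated with the Hspa1a cluster at r = 0.977.

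Hspa8 encodes HSC70, the HSP70 that cells make without stress. The 4 clusters that carry its symbol alone lie, by their identifiers, on chromosomes 1, 1, 6 and 14, whereas the gene is on chromosome 9, so which transcripts they read is uncertain. The cluster used, on chromosome 6, had levels of 13.49, 13.44 and 13.57 in the IZ, 13.59, 13.56 and 13.50 in the BZ, and 13.80, 13.49 and 13.44 in the NIZ. The zones overlapped, with NIZ replicate 1 highest, and the differences were -0.08 in IZ against NIZ, -0.03 in BZ against NIZ and -0.05 in IZ against BZ (SE 0.09 each). The 4 clusters moved together over the arrays, with a lowest pairwise r of 0.977. The cluster on chromosome 9, TC0900000458.mm.1, also carries small nucleolar RNA symbols, followed the cluster used at r = 0.907, and differed by -0.09 in IZ against NIZ and by -0.10 in BZ against NIZ.

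Dnajb1 and Hsph1 serve the HSP70 cycle, the first as the J-domain partner that brings clients and the second, HSP110, as an exchange factor. Dnajb1 had levels of 7.78, 7.75 and 7.63 in the IZ, 7.84, 7.74 and 7.96 in the BZ, and 7.97, 7.75 and 7.77 in the NIZ. The zones overlapped, and the differences were -0.11 in IZ against NIZ (95% interval -0.30 to 0.08), 0.02 in BZ against NIZ and -0.13 in IZ against BZ. Hsph1 had levels of 7.97, 7.60 and 7.60 in the IZ, 8.13, 7.42 and 7.51 in the BZ, and 7.60, 7.46 and 7.54 in the NIZ. Replicate 1 was the highest array of Hsph1 in each zone, most clearly in the IZ and BZ, and the zones overlapped. Its differences, 0.19 in IZ against NIZ (interval -0.25 to 0.63) and 0.15 in BZ against NIZ (interval -0.29 to 0.59), were the largest positive ones among the members. Each varied with replicate 1 of its zone: without IZ replicate 1 the first was 0.07, and without BZ replicate 1 the second was -0.07. Identical values on several arrays, as for Hsph1 on IZ replicates 2 and 3 and NIZ replicate 1, occurred in 71.4% of clusters.

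Hsp90aa1, the inducible HSP90 of the cytosol, had levels of 10.44, 10.06 and 9.95 in the IZ, 10.65, 10.08 and 9.75 in the BZ, and 10.75, 10.08 and 9.91 in the NIZ. In every zone replicate 1 was highest and replicate 3 lowest, and the zones overlapped. The zone means lay within 0.10 of each other (-0.10 in IZ against NIZ, -0.09 in BZ against NIZ, -0.01 in IZ against BZ), with an SE of 0.29. A pair of clusters on chromosomes 3 and 11, which also carry symbols of predicted genes, had means of 10.57 and 11.08 in the IZ, 10.54 and 11.08 in the BZ, and 10.67 and 11.19 in the NIZ. Both had the highest mean in the NIZ, as did the cluster used, and the zones overlapped.

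Hspb1, the small heat shock protein called HSP25 in mouse and HSP27 in human, had levels of 10.17, 9.36 and 8.89 in the IZ, 10.53, 9.66 and 8.86 in the BZ, and 10.96, 9.83 and 8.67 in the NIZ. Each zone held the same order, replicate 1 highest and replicate 3 lowest, and the zones overlapped. Its range over the 9 arrays was 2.29 on the log2 scale, or 4.90-fold, wider than that of 99.2% of the 19775 genes above the median level. The zone differences were far smaller than that range, at -0.35 in IZ against NIZ (SE 0.65, 95% interval -1.87 to 1.17), -0.14 in BZ against NIZ and -0.21 in IZ against BZ. Without NIZ replicate 3 the difference in IZ against NIZ was -0.92, and without NIZ replicate 1 it was 0.22.

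Cryab, alpha-B-crystallin, the abundant small heat shock protein of cardiac muscle, had levels of 9.25, 9.07 and 9.06 in the IZ, 9.29, 9.12 and 9.02 in the BZ, and 9.33, 9.14 and 8.89 in the NIZ. The replicate order of Hspb1 recurred on a smaller scale, and the zones overlapped. The differences were 0.00 in IZ against NIZ (interval -0.28 to 0.28), 0.02 in BZ against NIZ and -0.02 in IZ against BZ.

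Bag3, the co-chaperone that couples HSP70 to small heat shock proteins and to autophagy at the Z-disc, had levels of 9.58, 9.82 and 9.79 in the IZ, 9.48, 9.83 and 9.64 in the BZ, and 9.72, 9.94 and 9.82 in the NIZ. Replicate 1 was the lowest array in each zone, the reverse of Hsph1, Hsp90aa1, Hspb1 and Cryab. In BZ against NIZ the arrays of the same number differed by -0.23, -0.12 and -0.18, all lower in the BZ, as did 13% of all clusters. Their mean difference was -0.18 (SE 0.11, 95% interval -0.42 to 0.07), with limma adjusted p = 0.854 and an exact two-sided permutation p = 0.3. Neither test paired arrays by number, so the SE and interval include the spread between replicate numbers and do not measure the paired shift. When limma was fitted with a fixed block for number, Bag3 in BZ against NIZ had adjusted p = 0.669. The differences were -0.10 in IZ against NIZ and 0.08 in IZ against BZ. Over the 24 permutation tests of the members, every Benjamini-Hochberg adjusted p was 1.

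**Figure D2:**
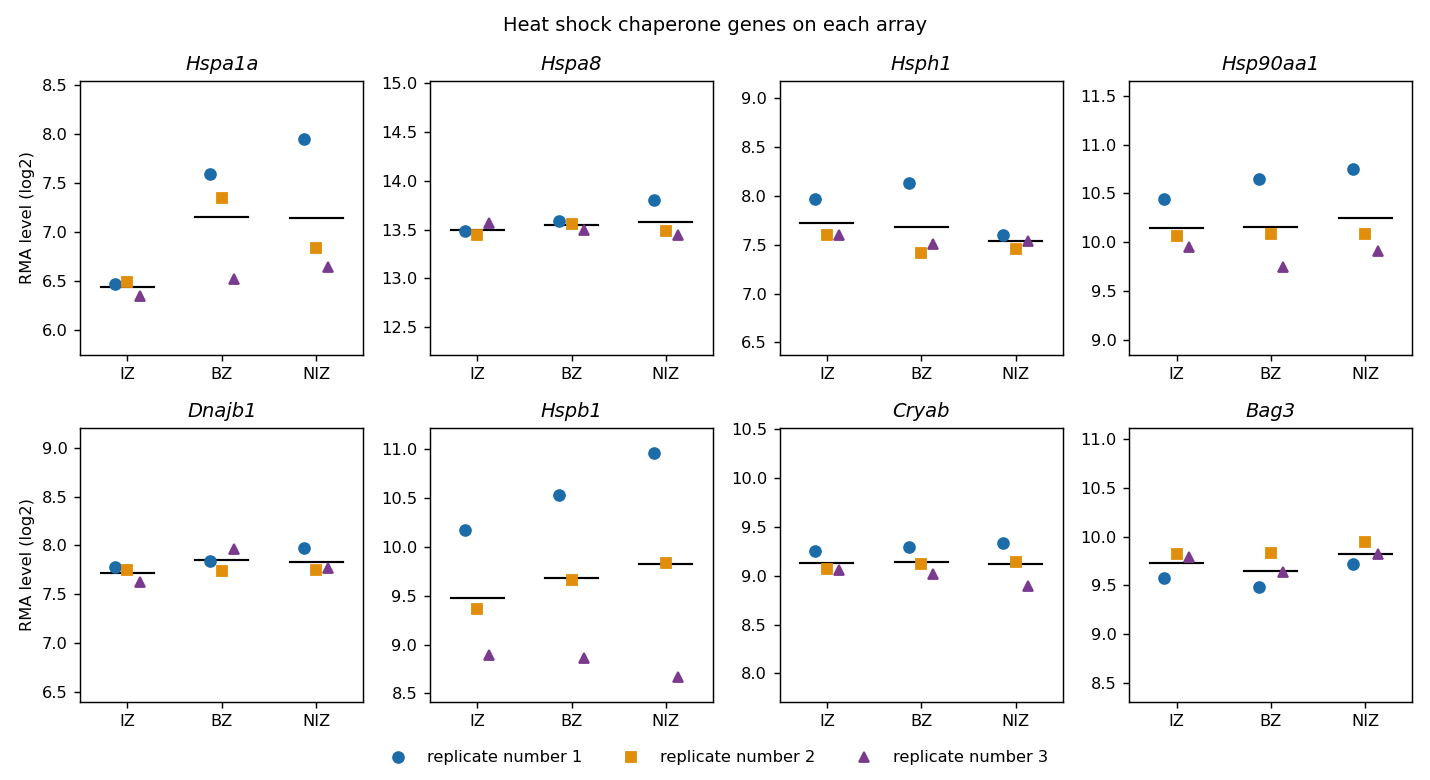
RMA level (log2) of the 8 measured members on each array by zone, with symbols for the replicate number, a line at the zone mean (n = 3) and the same log2 width in all panels. The 3 IZ arrays of Hspa1a, between 6.34 and 6.49, sit just below BZ replicate 3, the next lowest at 6.52. Hspb1 keeps replicate 1 above replicate 3 in each zone.

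The members varied with the replicate number more than with the zone. Of the variance over the 9 arrays, the number took 92.5% for Hsp90aa1, 91.0% for Hspb1, 86.3% for Cryab, 66.1% for Bag3 and 63.3% for Hsph1, while the zone took 1.75%, 3.64%, 0.486%, 28.7% and 13.3% for the same genes. For Hspa1a the number took 39.9% and the zone 38.2%, for Hspa8 32.5% and 9.40%, and for Dnajb1 21.8% and 31.4%, and Dnajb1 alone among the members had the larger share in the zone. The medians over the 19775 genes above the median level were 35.2% for the number and 23.0% for the zone. Some members had wide ranges. Hspa1a had a wider range than 98.0% of those genes, Hsp90aa1 than 93.3% and Hsph1 than 84.8%, but Dnajb1 only than 47.7%.

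The mean of the 8 members, each centred on its own mean, was 0.07, -0.13 and -0.22 in the IZ, 0.31, 0.02 and -0.23 in the BZ, and 0.44, -0.01 and -0.24 in the NIZ. This mean was highest on replicate 1 and lowest on replicate 3 in each zone. The gap between them was narrowest in the IZ, at 0.29, against 0.54 in the BZ and 0.68 in the NIZ. The members were not scaled, so those with the widest ranges, Hspb1 (2.29) and Hspa1a (1.62), weigh most in it. The same holds for correlations with this mean. Not every member followed its order: Bag3 had replicate 1 lowest in each zone. Hspb1 and Cryab ran closest together over the 9 arrays (r = 0.965), then Hspb1 and Hsp90aa1 (r = 0.952) and Hsp90aa1 and Cryab (r = 0.915). Hsph1 and Bag3 ran opposite (r = -0.84). With the zone means removed these were 0.986 for Hspb1 with Cryab, 0.956 for Hspb1 with Hsp90aa1 and -0.87 for Hsph1 with Bag3. The 9 arrays come from 3 mice and are not independent, so these correlations describe these arrays only.

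Other gene groups varied over the same arrays. The mean of 10 immediate early genes, which are induced within minutes of stress or handling, correlated with the member mean at r = 0.936, and was -0.07, 0.02 and -0.16 in the IZ, 0.32, 0.03 and -0.37 in the BZ, and 0.59, 0.04 and -0.41 in the NIZ. Neutrophil markers correlated at r = 0.751, with replicate 1 above replicate 3 by 3.55 in the BZ and by 3.56 in the NIZ but below it by 1.06 in the IZ (7 of 7 genes measured). Macrophage markers correlated at r = 0.460, cardiomyocyte markers at r = -0.88 and mesothelial markers, 3 genes, at r = -0.84. The other marker lists lay between r = -0.67 (fibroblast) and r = 0.290 (smooth muscle). The part of these groups in the members' pattern was not tested. Among 19711 genes, 733 (3.72%) correlated with the member mean above 0.9 and 651 (3.30%) below -0.9. The 5 genes most like it were Urb2 (r = 0.993), Hnrnpf (r = 0.993), Htr2a (r = 0.993), Nmrk2 (r = 0.990) and Gm12435 (r = 0.990). Nmrk2, a nicotinamide riboside kinase of muscle, had the widest range of the 5, with levels of 8.66, 7.11 and 6.82 in the IZ, 9.66, 7.94 and 6.91 in the BZ, and 10.22, 7.68 and 6.71 in the NIZ. Its arrays repeated the order of Hspb1 in each zone.

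**Figure D3:**
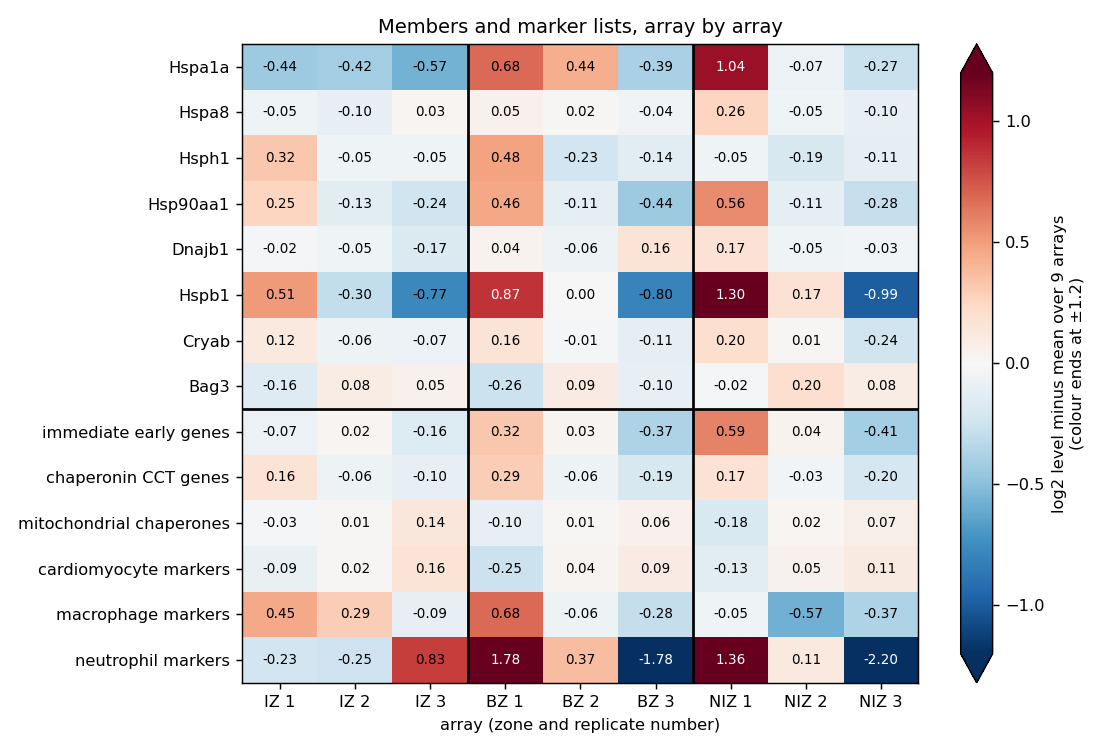
Log2 level minus the mean over 9 arrays for the 8 measured members (upper block) and for the mean of 6 gene lists (lower block), by zone and replicate number. Replicate 1 of the NIZ reaches 1.30 for Hspb1 and 1.04 for Hspa1a, and the neutrophil markers run between -2.20 and 1.78.

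Chaperone genes outside the list also gave 0 calls at an adjusted p under 0.05 in any comparison with all arrays. Of 18 further HSP70-system genes, 6 were higher and 12 lower in IZ against NIZ (median -0.02), and 3 higher, 14 lower and 1 equal in BZ against NIZ (median -0.05). Bag5, an HSP70 exchange factor, had levels of 7.29, 7.28 and 7.18 in the IZ, 7.29, 7.29 and 7.15 in the BZ, and 7.57, 7.46 and 7.33 in the NIZ. Its IZ and BZ arrays all lay below its NIZ arrays, with differences of -0.20 in IZ against NIZ and, for BZ against NIZ, -0.21 (limma adjusted p = 0.999 and 0.854). Such an order held in 4.55% of all clusters for IZ against NIZ and in 3.72% for BZ against NIZ. Both comparisons use the same NIZ arrays. Dnaja2, a J-domain protein, differed by -0.07 in IZ against NIZ and by -0.25 in BZ against NIZ.

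Of 13 HSP90 co-chaperone genes, 8 were higher and 5 lower in IZ against NIZ (median 0.02), and 7 higher and 6 lower in BZ against NIZ (median 0.02). Fkbp5, a glucocorticoid-induced HSP90 partner, had levels of 7.35, 7.35 and 7.47 in the IZ, 8.08, 8.29 and 6.87 in the BZ, and 8.70, 8.84 and 7.0 in the NIZ. Chordc1, an HSP90-binding protein that HSF1 induces, had levels of 8.62, 8.39 and 8.68 in the IZ, 8.49, 8.13 and 8.39 in the BZ, and 7.78, 7.53 and 8.54 in the NIZ. In Fkbp5, replicate 3 was the lowest array of both the BZ and the NIZ, below all IZ arrays. In Chordc1, NIZ replicate 3 lay among the IZ arrays, and the other NIZ arrays lay below all IZ and BZ arrays. With NIZ replicate 3 Fkbp5 differed by -0.79 and Chordc1 by 0.62 in IZ against NIZ (limma adjusted p = 0.999 for both). Without NIZ replicate 3 the differences were -1.38 and 0.91 (limma adjusted p = 0.383 and 0.0907).

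All 6 further small heat shock protein genes were lower in IZ against NIZ (median -0.10), and 2 were higher and 4 lower in BZ against NIZ (median -0.04). Hspb8, the usual partner of Bag3, had levels of 10.94, 10.93 and 10.94 in the IZ, 10.78, 10.84 and 10.66 in the BZ, and 11.30, 11.06 and 11.05 in the NIZ. The zones did not overlap, with the BZ lowest, the IZ between and the NIZ highest, as Bag3 means were also ordered. The differences of Hspb8 were -0.20 in IZ against NIZ, -0.37 in BZ against NIZ and 0.18 in IZ against BZ, with limma adjusted p = 0.999, 0.854 and 0.943. Arrays did not overlap, and were lower, in 4.55% of clusters in IZ against NIZ and in 3.72% in BZ against NIZ, and were higher in 2.24% in IZ against BZ. Cryaa, alpha-A-crystallin, differed by -0.01 in IZ against NIZ and by 0.18 in BZ against NIZ.

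The factors that drive the response showed small differences that did not pass the test. Of 4 genes of heat shock factors and their binding protein, 2 were higher and 2 lower in each of the IZ and the BZ against the NIZ, with medians of 0.03 and 0.00, and Hsf1 itself was not analysed here. Hsf2, an HSF1 partner, differed by 0.09 in IZ against NIZ and by -0.02 in BZ against NIZ, and Hsbp1, which binds heat shock factors, by 0.07 and 0.06. Of 9 other genes that HSF1 induces, 6 were higher and 3 lower in IZ against NIZ (median 0.02), and 4 higher and 5 lower in BZ against NIZ (median 0.00). Dnajb4, a J-domain protein of that group, differed by -0.09 in IZ against NIZ and by -0.15 in BZ against NIZ. All 9 genes also belong to other chaperone groups described here.

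**Figure D4:**
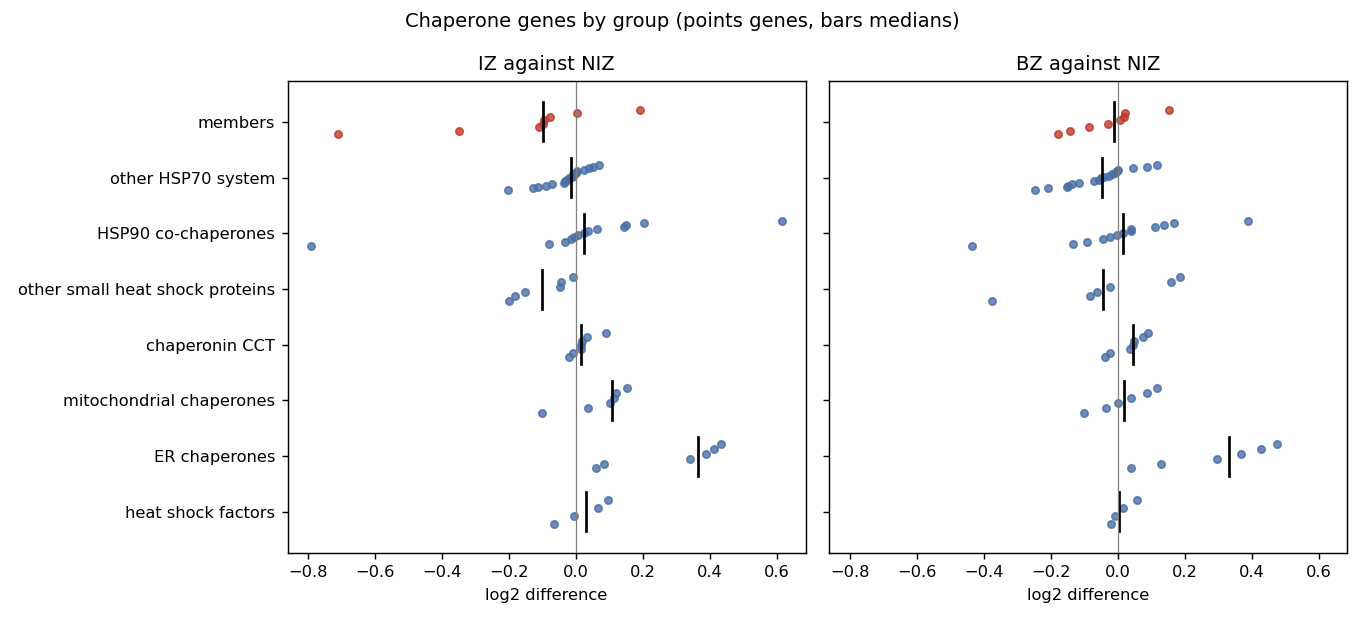
Log2 difference of each gene in IZ against NIZ (left) and BZ against NIZ (right) for the members and 7 other chaperone groups, with the group median as a bar. The member median is -0.10 in IZ against NIZ and, for BZ against NIZ, -0.01, and the endoplasmic reticulum (ER) chaperones have the highest group medians, 0.36 and 0.33.

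The chaperonin CCT, which folds actin and tubulin, had 5 of 7 genes higher and 2 lower in each of IZ against NIZ (median 0.02) and BZ against NIZ (median 0.05). Its mean followed the member mean over the arrays at r = 0.897. The mitochondrial chaperones had 5 of 6 genes higher in IZ against NIZ (median 0.11) and 3 of 6 in BZ against NIZ (median 0.02), and their mean ran against the member mean at r = -0.95. Of the genes in these groups, Cct2 differed by 0.02 in IZ against NIZ and by 0.09 in BZ against NIZ, Cct4 by 0.09 and 0.07, Dnaja3 by 0.15 and 0.12, and Hspe1 by 0.12 and 0.04.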

How the data were processed

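Whole-tissue RNA (100 ng) of 9 left ventricular samples was hybridised to single-colour Affymetrix Mouse Transcriptome Assay 1.0 arrays. The deposited values are log2 levels that the authors made by RMA with Affymetrix Expression Console 1.0 and Transcriptome Analysis Console 3.0, as named in the submitters' processing notes. RMA brings the arrays to a common distribution, which removes any shift shared by all genes. The number of arrays (3 per zone) limits precision. Symbols came from the platform annotation, which can be old: 30414 clusters carried 1 symbol, 2146 several and 32974 none.

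All clusters and all 9 arrays were fitted without a block in limma 3.58.1 (R 4.3.3), with Benjamini-Hochberg adjustment over 65534 clusters and a threshold of 0.05. The SEs and intervals given come from this fit, so they include the spread between replicate numbers. The script was tested on simulated data. Members and gene lists were chosen with earlier results of these data known. Named were all members, the 2 genes per further chaperone list with the largest absolute difference from the NIZ in either zone, and the 5 genes most correlated with the member mean. Calr and Col3a1 were named in addition, from their results. Marker lists were read as means. Same-numbered deviations from the zone means correlated over clusters at 0.618, 0.204 and 0.516 between BZ and NIZ, which pairs these zones by the rule of every r above 0.1, but at 0.360, 0.0785 and 0.250 between IZ and NIZ and at 0.358, 0.0632 and 0.197 between IZ and BZ. Alternatives were the number as a block, other scalings, filters and variance models, the methods' test and each array left out.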

Additional observations from a re-analysis of the deposited data

How the results depend on the processing

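No member was called at an adjusted p under 0.05 under any alternative tried, and the smallest adjusted p of a member among those that kept all arrays was 0.412 (Hspa1a, IZ against BZ). With the replicate number as a fixed replicate block, 0 clusters and 0 members were called, and Hspa1a in IZ against NIZ had adjusted p = 0.807. The random replicate block, and the block with only the 2 zones compared (added after seeing the data), also called 0. The methods' test, analysis of variance with Bonferroni-corrected pairs, gave 406 clusters in IZ against NIZ, 574 in BZ against NIZ and 447 in IZ against BZ without adjustment over clusters, and 0 with it. Median centring put Hspa1a in BZ against NIZ at -0.0024, Hsp90aa1 in IZ against BZ at 0.022 and Cryab in IZ against BZ at 0.014. Quantile normalization put Hspa1a in BZ against NIZ at -0.0019, Hspa8 in BZ against NIZ at 0.026 and Cryab in IZ against NIZ at -0.0035. Array weights put Cryab in IZ against NIZ at -0.0043, Hspa8 and Dnajb1 in BZ against NIZ at 0.019 and -0.019, and Hsp90aa1 and Bag3 in IZ against BZ at 0.0096 and -0.022. All of these are sign changes of differences near 0, and the cause was not tested. Array weights also moved Hspa1a in BZ against NIZ, from 0.0059 to 0.30. They moved it from -0.71 to -0.57 in IZ against NIZ and from -0.72 to -0.87 in IZ against BZ.

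With single arrays or numbers left out, clusters called ran between 0 and 216 in IZ against NIZ and between 0 and 173 in BZ against NIZ, where the calls came without NIZ replicate 3 or without all arrays of number 3 (68 and 65), and members called stayed at 0. A zone left with 2 arrays was assumed to vary like the others. The member median ran between -0.15 and 0.071 in IZ against NIZ, between -0.14 and 0.15 in BZ against NIZ, and between -0.12 and 0.03 in IZ against BZ. In IZ against NIZ the range was -0.18 to 0.040 for Hspa8, -0.27 to 0.16 for Hsp90aa1, -0.92 to 0.22 for Hspb1 and -0.11 to 0.11 for Cryab. In BZ against NIZ it was -0.25 to 0.41 for Hspa1a, -0.098 to 0.085 for Hspa8, -0.070 to 0.28 for Hsph1, -0.33 to 0.17 for Hsp90aa1, -0.068 to 0.091 for Dnajb1, -0.72 to 0.43 for Hspb1 and -0.10 to 0.13 for Cryab. In IZ against BZ it was -0.093 to 0.26 for Hsph1, -0.21 to 0.23 for Hsp90aa1, -0.62 to 0.22 for Hspb1, -0.081 to 0.054 for Cryab and -0.0035 to 0.17 for Bag3. Hspa1a stayed lower in IZ against NIZ (-0.96 to -0.31) and in IZ against BZ (-1.03 to -0.50) throughout.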

Other observations

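The chaperones of the ER, which fold secreted and membrane proteins and answer to the unfolded protein response instead of HSF1, were the chaperone group with the largest median difference from the NIZ. All 6 measured genes were higher in IZ against NIZ (median 0.36) and likewise in BZ against NIZ (median 0.33). At an unadjusted limma p under 0.05, 4 and 3 of them were higher, beside 1.24% and 2.19% of all clusters. At an adjusted p under 0.05 there were 0. All clusters include 32974 without a symbol, and the gene lists were chosen with earlier results known. Enrichment of the group was not tested. In the same comparisons fibroblast markers were higher for 4 and 5 of 6 genes (median 0.39 in both) and macrophage markers for 8 and 7 of 8 genes (medians 0.48 and 0.47), and their part in the ER chaperone levels was not tested. Hsp90b1, the HSP90 of the ER, had levels of 10.78, 10.80 and 10.98 in the IZ, 10.82, 10.77 and 10.78 in the BZ, and 10.23, 10.22 and 10.81 in the NIZ. NIZ replicate 3 lay among the IZ and BZ arrays and the other NIZ arrays below them all. Without that array the differences of Hsp90b1 were 0.63 in IZ against NIZ and, for BZ against NIZ, 0.56 (limma adjusted p = 0.0187 and 0.0368). Hsp90b1 was the only gene of the group called, among 59 and 29 clusters called higher. Leaving out the NIZ array nearest the other zones widens the difference and narrows the NIZ spread, with 2 NIZ arrays left. That fit is singled out here by its calls, so its p-values are descriptive only. The fibroblast marker Col3a1 was also called in BZ against NIZ without that array (1.36, adjusted p = 0.0467). Hyou1, an HSP110 relative of the ER, differed by 0.39 in IZ against NIZ and by 0.48 in BZ against NIZ with all arrays, and by 0.57 and 0.66 without NIZ replicate 3 (adjusted p = 0.132 and 0.112). Calr, named here because of its result, had levels of 10.26, 10.11 and 10.17 in the IZ. Its levels were 10.35, 10.11 and 10.13 in the BZ and 9.72, 9.61 and 9.98 in the NIZ. Its differences were 0.41 in IZ against NIZ and, for BZ against NIZ, 0.43 (limma adjusted p = 0.999 and 0.854).

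Of the immediate early genes, Atf3, a stress-induced transcription factor, had levels of 7.30, 7.30 and 6.97 in the IZ, 7.81, 7.27 and 6.91 in the BZ, and 8.55, 7.34 and 6.90 in the NIZ. Its highest array was that of Hspa1a, and Jun, an AP-1 subunit, had its highest level on the same array, 8.49 in NIZ replicate 1.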
